A study of Mus musculus with 12 samples.

Results

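The genotype effect was the difference between all 6 hearts that overexpressed CIP and all 6 control hearts, with the surgery as a second factor, so that the 12 libraries of the series all entered it. CIP (cardiac ISL1-interacting protein, encoded by Mlip) was expressed in CIP-OE mice from a Rosa-CIP allele after the aMHC-Mer-Cre-Mer transgene had removed a floxed stop, upon intraperitoneal tamoxifen. Ctrl mice were CIP-KI-flox littermates that carried the same allele and lacked the Cre transgene. Both were C57BL/6 mice labelled as 4 months old, had sham surgery or transverse aortic constriction (TAC), and gave hearts 8 weeks after surgery, with 3 mice per group, named Ctrl-Sham, CIP-OE-Sham, Ctrl-TAC and CIP-OE-TAC. The sources used here do not say whether the controls received tamoxifen, so CIP, the Mer-Cre-Mer protein, tamoxifen and the DNA linked to either transgene cannot be told apart in this contrast. Genes were tested when the value reached 10 in at least 3 libraries, which held for 13392 of 53882 genes.

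CIP is a protein of striated muscle that binds A-type lamins of the nuclear envelope and the transcription factor ISL1. The aMHC (Myh6) promoter limits Cre to cardiomyocytes, and Mer-Cre-Mer is a Cre recombinase placed between mutated ligand-binding domains of the mouse estrogen receptor, which hold it in the cytoplasm until tamoxifen binds. TAC loads the left ventricle with pressure, and the heart answers with growth, fetal genes, fibrosis and lower oxidative metabolism. A change of the same direction in sham and in TAC hearts is one that was measured with and without that load.

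Values are normalized counts, that is, reads scaled by the authors with a single factor for each library, and the libraries held 6990445 to 7704812 reads in genes. Transcripts of the mitochondrial genome took 44.6 to 47.0% of the reads in Ctrl-Sham, 45.3 to 54.0% in CIP-OE-Sham, 33.9 to 43.0% in Ctrl-TAC and 41.9 to 47.9% in CIP-OE-TAC. Over both surgeries that share was 5.06 percentage points higher in CIP-OE hearts (exact permutation within each surgery, two-sided p = 0.05, 0.28 after adjustment over 13 such values). Summed markers of cardiomyocytes ranged from 369500 to 408612 in Ctrl-Sham, 375176 to 437326 in CIP-OE-Sham, 325765 to 397797 in Ctrl-TAC and 332259 to 378776 in CIP-OE-TAC, so that the tissue carried its label. Sums of markers of some other cell types did not overlap between genotypes within 1 surgery. Atrial markers summed to 15290 to 28834 in Ctrl-TAC and 5038 to 9046 in CIP-OE-TAC hearts, against 708 to 876 in Ctrl-Sham hearts. The atrial list holds Nppa, which is also on the list of cardiac stress genes, so atrial tissue and Nppa expression cannot be told apart in this sum. Of the 3 atrial markers tested 1 was higher and 2 were lower in CIP-OE-TAC hearts. Smooth muscle and pericyte markers summed to 11695 to 12580 in Ctrl-Sham and 9693 to 11114 in CIP-OE-Sham hearts. Endothelial markers summed to 9097 to 9425 in Ctrl-Sham and 9666 to 11808 in CIP-OE-Sham hearts, and those of macrophages are given below. Over both surgeries the adjusted p of each sum was 0.28 or more, but the smallest p of 0.005 becomes 0.065 for a lone value among 13, so that a single low p could not pass. The part of these cell types in the results was not tested. In whole hearts, fewer cells of a type and less RNA per cell cannot be told apart.

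The genotype changed few genes in the same direction in both surgeries. Over both surgeries 142 of 13392 genes (1.06%) were called with limma when the adjusted p was under 0.05 and the fold exceeded 1.5, of which 40 (0.299%) were higher and 102 (0.762%) were lower in CIP-OE hearts. Since a mean of both differences can be carried by 1 of them, a shared change was asked to have the same sign and an unadjusted limma p under 0.05 in each surgery as well. This held for 54 genes (0.403%), 20 higher (0.149%) and 34 lower (0.254%), and all of these are shown in the plot of the shared genes. Of the 54 genes 7 (Adnp, B230322F03Rik, Gc, Gm45242, Gm5335, Gm8756 and Rpl35) passed the filter on low values only through the genotype where they were high, which leaves 17 higher and 30 lower, and their values are given without a test. Of the other 88 called genes, 86 had an unadjusted limma p under 0.05 in TAC hearts only, 2 in sham hearts only, and 13 of the 142 had opposite signs. The 54 genes comprised 36 protein-coding genes, 5 antisense transcripts, 3 mitochondrial RNAs and 4 pseudogenes, among others.

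**Figure D1:**
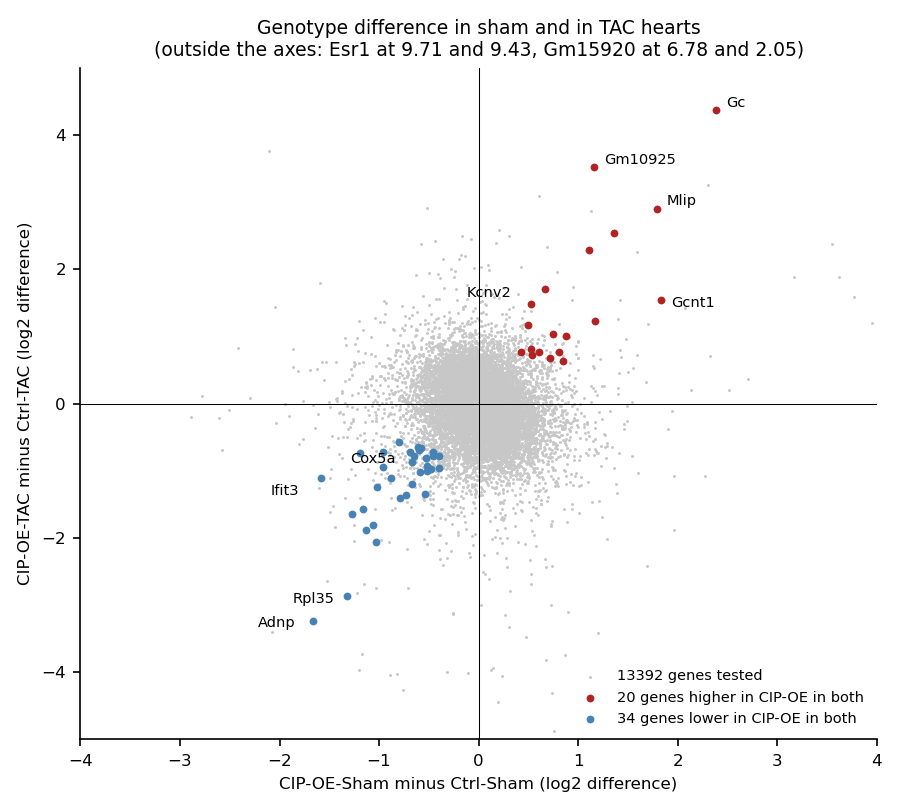
Log2 difference between CIP-OE and Ctrl hearts in sham (horizontal) and TAC hearts (vertical) for 13392 genes (gray), with the 20 shared rises in red and the 34 shared falls in blue. Esr1 and Gm15920, which is not shared, lie outside the axes. The colored genes lie in 2 opposite quadrants because the rule for a shared change asks for the same sign. Across all genes the Spearman rho was -0.19.

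Across all 13392 genes the sham and TAC differences, which share no library, ran in opposite directions more often than not. Only 41.6% of the genes had the same sign in both surgeries, and the Spearman correlation of the differences was -0.19, as a description over genes that are not independent. Unadjusted limma p-values under 0.05 in each surgery occurred with opposite signs in 470 genes (3.51%) and with the same sign in 148 genes (1.11%). The GC content of a gene moved with this pattern. The median difference went from -0.12 in the lowest of 5 equal classes of genes by GC content to 0.15 in the highest class in sham hearts, and from 0.40 to -0.45 in TAC hearts. After a loess correction of each library for GC content, the correlation of the differences was 0.04 and 51.4% of the genes had the same sign. The fit on corrected values called 31 genes higher and 68 lower, with 19 and 29 shared, and 38 of the 53 shared genes that have a GC value stayed shared. The 15 that did not were Uqcrb, Ndufc1, mt-Rnr2, Junb, Ip6k3, Tmsb4x, Gpr153, Shisa4, Trir, Hpcal1, Gm13340, Gm16185, Gm15743, Gm45242 and E230013L22Rik. With length corrected as well, an alternative added after seeing the data, 36 were higher and 53 lower. Results below come from the values as deposited, with GC-corrected values beside several of them.

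**Figure D2:**
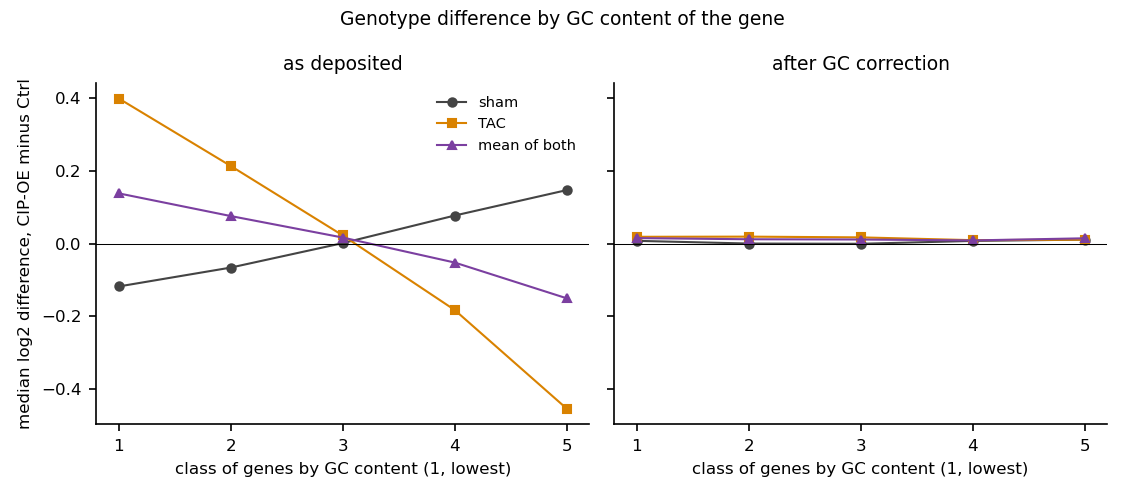
Median log2 difference between CIP-OE and Ctrl hearts in 5 equal classes of 13259 genes ordered by GC content (1 is the lowest), as deposited on the left and after GC correction on the right. In sham hearts the median rises from -0.12 to 0.15 and in TAC hearts it falls from 0.40 to -0.45, and after correction all medians lie between 0 and 0.02.

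The genetic design was visible in every library. Mlip (chr9:77102081-77352969, minus strand, GRCm38) had normalized counts of 950, 926 and 1322 in Ctrl-Sham and 5492, 4596 and 1910 in CIP-OE-Sham hearts. In TAC hearts it had 888, 823 and 936 with Ctrl and 5909, 8232 and 5921 with CIP-OE. All 6 CIP-OE hearts lay above all 6 controls, and 1 sham heart (1910) lay far below the others of its genotype. The fold was 3.46 in sham and 7.48 in TAC hearts, and the log2 difference over both was 2.35 ± 0.24 (SE, adjusted p = 0.0030). The 2 differences were not shown to differ (adjusted p of the interaction = 0.16).

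Reads on Mlip sum the endogenous gene and the Rosa-CIP transgene, which the table does not separate. The 250 bases before the Mlip start site in the RefSeq promoter table are shown because they precede the endogenous gene (GRCm38.p6, chr9:77347871-77348120, minus strand). They lie within the longer Mlip gene of the annotation. Capitals mark the GATA motif AGATAA, here as its reverse complement TTATCT at position -136, and 7.20% of the 9832 tested genes with a promoter in RefSeq hold it on either strand.
Mlip: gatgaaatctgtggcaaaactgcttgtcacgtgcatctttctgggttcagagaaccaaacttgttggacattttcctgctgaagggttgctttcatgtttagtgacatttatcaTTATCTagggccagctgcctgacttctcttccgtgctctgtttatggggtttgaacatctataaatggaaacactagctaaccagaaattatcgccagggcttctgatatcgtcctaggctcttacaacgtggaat

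Esr1 (chr10:4611593-5005614), the gene of estrogen receptor alpha whose ligand-binding domain is part of Mer-Cre-Mer, had the largest difference of all genes tested. It had 17.9, 62.1 and 8.48 normalized counts in Ctrl-Sham and 55.4, 14.6 and 11.3 in Ctrl-TAC hearts. CIP-OE-Sham hearts had 15295, 19341 and 22247, and CIP-OE-TAC hearts had 15398, 24178 and 9528. The log2 difference was 9.71 in sham and 9.43 in TAC hearts (adjusted p over both = 0.00032). Esr1 was the only gene that passed in both surgeries when the larger of its unadjusted limma p-values was adjusted over all genes (adjusted p = 0.020). Since reads of a fusion transcript count toward the gene they match, the value does not tell the endogenous receptor from the transgene.

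Other genes of the targeted loci differed little. Myh6, whose promoter drives Cre, had a log2 difference of 0.24 ± 0.14 (adjusted p = 0.40), Gt(ROSA)26Sor at the Rosa locus one of 0.23 ± 0.20 (adjusted p = 0.59), and its neighbors Thumpd3 and Setd5 of 0.04 ± 0.13 and 0.21 ± 0.09 (adjusted p = 0.91 and 0.21). Members of gene lists were said to rise or fall when the adjusted p over all genes was under 0.05 at any fold, which held for 268 of 13392 genes (2.0%), 107 that rose (0.799%) and 161 that fell (1.2%). Of the estrogen receptor targets on a list of 11 tested genes, 0 rose and 2 fell, with a median difference of -0.17. These were Ccnd1, a cyclin of the cell cycle (-0.55 ± 0.12, adjusted p = 0.027), and Ctsd, a lysosomal protease (-0.36 ± 0.09, adjusted p = 0.034). Ccnd1 was lower in all 6 CIP-OE hearts (280 to 506) than in the 6 controls (524 to 674). Ctsd was at 0.19 in sham and -0.91 in TAC hearts, and these differed (adjusted p of the interaction = 0.0014). After GC correction 1 of the 11 fell, and Ctsd did not pass over both surgeries (adjusted p = 0.11). Cxcl12, the most abundant member beside Ctsd, had a difference of -0.03 ± 0.10 (adjusted p = 0.89). No lamina or envelope gene passed among 15 tested (median 0.11). Syne1, which links the nuclear envelope to the cytoskeleton, was at 0.17 ± 0.10 (adjusted p = 0.36), Tor1aip1, an inner nuclear membrane protein, at 0.10 ± 0.08 (0.57), and Banf1, a DNA-bridging factor of the lamina, at -0.31 ± 0.12 (0.16).

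**Figure D3:**
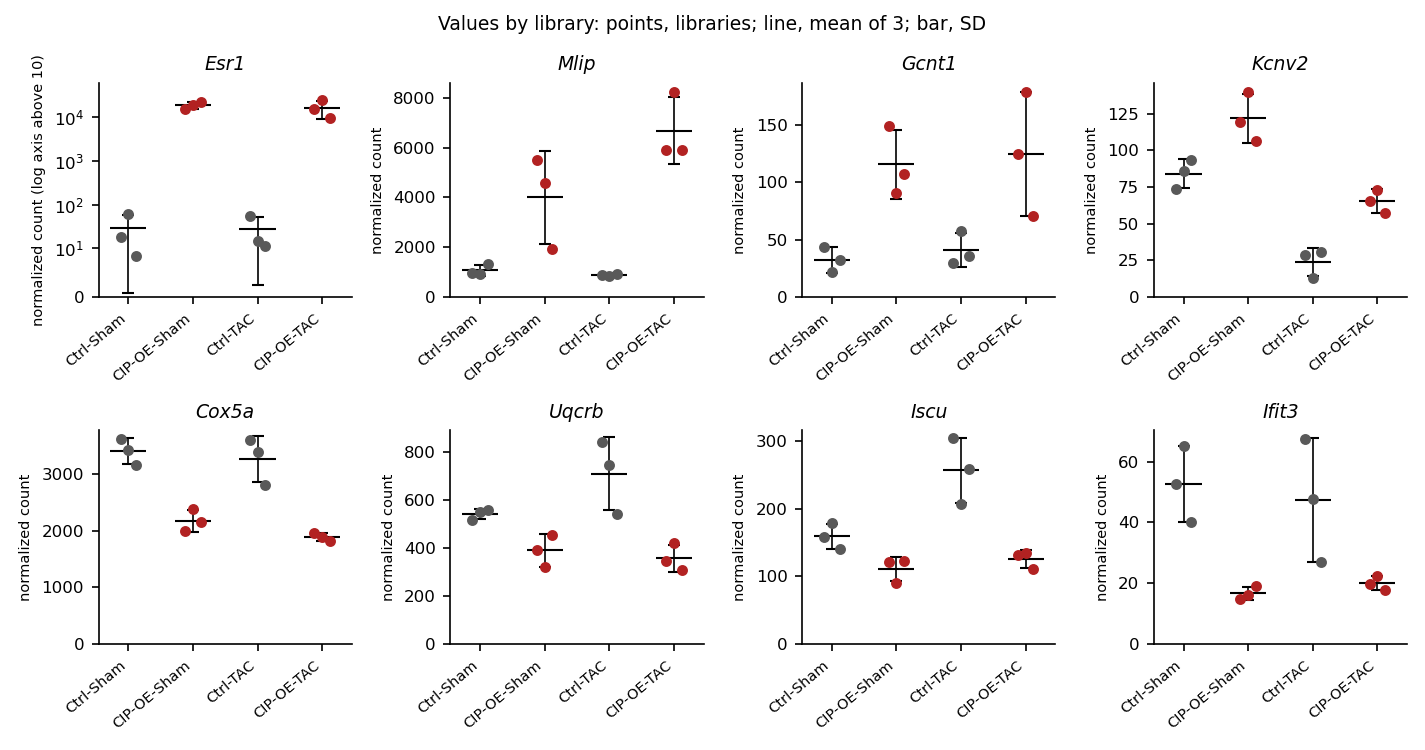
Normalized counts of 8 genes in each library (points; gray, Ctrl; red, CIP-OE), with the mean of 3 (line) and the SD (bar) per group; the axis of Esr1 is logarithmic above 10. In each panel other than Kcnv2 the 6 CIP-OE hearts lie on 1 side of all 6 controls, and for Kcnv2 this holds within sham and within TAC hearts.

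Beside the transgenes, Gcnt1, the enzyme that starts core 2 branches of O-linked glycans, had the largest shared rise among protein-coding genes with a mean of at least 50. It had 43.7, 21.4 and 31.8 normalized counts in Ctrl-Sham and 149, 90.8 and 108 in CIP-OE-Sham hearts. Ctrl-TAC hearts had 29.6, 57.5 and 35.6, and CIP-OE-TAC hearts had 124, 179 and 70.5. All 6 CIP-OE hearts lay above all controls, with a fold of 3.57 in sham and 2.91 in TAC hearts and a log2 difference over both of 1.69 ± 0.24 (adjusted p = 0.0048). Adamts15, a protease of the extracellular matrix, went from 24.4 to 26.8 in Ctrl-Sham to 45.3 to 91.1 in CIP-OE-Sham hearts, and from 18.2 to 38.1 to 43.1 to 84.6 under TAC (1.20 ± 0.22, adjusted p = 0.0093). Zfp827, a zinc finger protein, had 142 to 147 in Ctrl-Sham, 222 to 306 in CIP-OE-Sham, 113 to 136 in Ctrl-TAC and 159 to 227 in CIP-OE-TAC hearts (0.74 ± 0.11, adjusted p = 0.0030). For both genes the 6 CIP-OE hearts did not overlap the 6 controls, which held for 14 of the 20 shared rises and 16 of the 34 shared falls, and for 0.68% of all genes tested. Shared genes were chosen by a low p in each surgery from these same values, so that their lack of overlap is no separate support. Bbs2, a subunit of the BBSome that serves cilia, and Col6a6, a chain of collagen VI, were higher by 0.63 ± 0.14 and 0.69 ± 0.16 (adjusted p = 0.028 and 0.034).

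Gc, the plasma vitamin D binding protein made mainly by liver, had 0 reads in all 6 controls. It had 0, 14.1 and 8.43 normalized counts in CIP-OE-Sham and 38.2, 10.3 and 18.8 in CIP-OE-TAC hearts. Against a floor of 3 reads per library the mean of the 6 CIP-OE hearts (15 ± 13, SD) was at least 5.28-fold higher, and 5 of the 6 had reads.

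Ion channels of cardiomyocytes held 4 rises and 0 falls among 31 tested (median 0.14), and 3 rises after GC correction. Kcnv2, a subunit that modifies Kv2 potassium channels, was the 1 shared change. It had 73.5, 85.5 and 93.3 normalized counts in Ctrl-Sham and 119, 139 and 106 in CIP-OE-Sham hearts. Ctrl-TAC hearts had 28.6, 13 and 30.4, and CIP-OE-TAC hearts had 65.5, 73.1 and 57.3. The CIP-OE hearts were above the controls within each surgery, and all CIP-OE-TAC hearts stayed below the lowest Ctrl-Sham value. Its log2 difference was 0.53 in sham hearts, with an unadjusted limma p of 0.049, and 1.49 in TAC hearts. Over both it was 1.01 ± 0.18 (adjusted p = 0.0076). Kcnd3, a pore subunit of the transient outward current, was higher by 0.55 ± 0.11 (adjusted p = 0.015), with 0.49 in sham and 0.61 in TAC hearts, and fell short of the fold of 1.5. Kcnj2 and Kcnj5, inward rectifiers, were higher by 0.50 and 0.52 over both surgeries (adjusted p = 0.027 and 0.034). In sham hearts neither had an unadjusted limma p under 0.05. Kcnj2 had 0.23 in sham and 0.77 in TAC hearts, and Kcnj5 had 0.03 and 1.01, which differed (adjusted p of the interaction = 0.018). The abundant Abcc9, a regulator of ATP-sensitive channels, did not pass, with 0.27 ± 0.10 (adjusted p = 0.16).

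Of the shared genes 4 lie on chromosome 19, where 0.913% of the 438 tested genes were shared against 0.403% of all. The share was higher on chromosome 8 (8 of 722, 1.11%), and it was 0.66% on chromosome 9 and 0.632% on chromosome 1. No difference between chromosomes was tested. In the widely used aMHC-Mer-Cre-Mer line the transgene has been mapped to A1cf on chromosome 19, and the sources used here do not say whether these mice descend from that line. A1cf itself (chr19:31868764-31948995) had at most 7.64 normalized counts in any heart and was not tested. Counted from its middle, Gcnt1 lay at -14.6 Mb, Kcnv2 at -4.58 Mb and Ifit3 at 2.68 Mb. Prkg1, a cGMP-dependent kinase at -0.744 Mb, was higher by 0.72 ± 0.16 (adjusted p = 0.028), with an unadjusted limma p of 0.26 in sham hearts. Of its other neighbors, Asah2 and Sgms1 were at 0.22 ± 0.09 and 0.17 ± 0.11 (adjusted p = 0.20 and 0.45). Within 15 Mb on either side 178 genes were tested and 8 passed at an adjusted p under 0.05 (4.49%, against 2.0% of all genes tested). This window was chosen after the positions were seen, and its share was not tested. Linked DNA and the transgene are present in the same mice and cannot be told apart.

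Cox5a, Uqcrb and Ndufc1, nuclear subunits of the respiratory chain, were shared falls. Cox5a, a subunit of cytochrome c oxidase, had 3617, 3411 and 3159 normalized counts in Ctrl-Sham and 1991, 2374 and 2155 in CIP-OE-Sham hearts. Under TAC it had 3601, 3384 and 2805 with Ctrl and 1961, 1894 and 1814 with CIP-OE. The genotypes did not overlap. Its fold was 0.64 in sham and 0.58 in TAC hearts, with a log2 difference over both of -0.71 ± 0.09 (adjusted p = 0.00032). Uqcrb, a subunit of the cytochrome bc1 complex, fell from 517, 548 and 558 to 392, 321 and 455 in sham hearts and from 840, 744 and 541 to 344, 418 and 306 in TAC hearts (-0.73 ± 0.12, adjusted p = 0.0042). Again no CIP-OE heart reached a control.

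Ndufc1 of complex I was the other shared subunit, at -0.58 in sham and -0.66 in TAC hearts (adjusted p over both = 0.036). Of 35 complex I subunits tested 9 fell and 0 rose, with 25 lower in both surgeries and a median of -0.21 in sham and -0.44 in TAC hearts. The 9 fell by 0.43 to 1.03 on the log2 scale over both surgeries. Of these only Ndufc1, Ndufb2 and Ndufa6 had an unadjusted limma p under 0.05 in each surgery. Ndufs7 had -0.03 in sham and -1.03 in TAC hearts, and Ndufa11 had -0.28 and -1.53 (adjusted p of the interaction = 0.024 and 0.039). After GC correction 6 fell, under quantile normalization 5, and with totals that leave out mitochondrial and top 20 genes 4, at medians over both of -0.34, -0.34 and -0.32. Ndufb2 fell by 0.50 ± 0.10 (adjusted p = 0.012), with all 6 CIP-OE hearts (240 to 285) below all controls (320 to 433). Ndufb4 had -0.34 in sham and -1.73 in TAC hearts, and these differed (adjusted p of the interaction = 0.040, 0.22 after GC correction). The abundant subunit Ndufs1 did not pass, with 0.21 ± 0.08 (adjusted p = 0.18). Of 41 subunits of complexes II to V, 7 fell and 1 rose, with 21 lower in both surgeries and a median of -0.18 in sham and -0.33 in TAC hearts, the latter -0.18 after GC correction. Of the 7 falls Cox5a, Uqcrb, Atp5g3 and Uqcrfs1 had an unadjusted limma p under 0.05 in each surgery. Atp5d, Atp5g1 and Cox7c had one in TAC hearts only, with 0.14 in sham and -2.01 in TAC hearts for Atp5g1. Among all genes 2758 of 13392 were lower in both surgeries and the median was 0.01 over both. Atp5b, the catalytic beta subunit of ATP synthase, was level at 0.01 ± 0.09 (adjusted p = 0.96), and Cox6a2, the muscle form of a cytochrome c oxidase subunit, had -0.46 ± 0.14 (adjusted p = 0.095). When each of the 12 libraries was left out in turn, Cox5a stayed shared in 12 fits, Uqcrb in 11 and Ndufc1 in 3. After GC correction only Cox5a of these stayed shared, since Ndufc1 was not called (adjusted p = 0.056) and Uqcrb was called over both (-0.87, adjusted p = 0.0025) without passing in each surgery.

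Iscu, the scaffold on which iron-sulfur clusters are built, had 158, 178 and 141 normalized counts in Ctrl-Sham and 121, 90.8 and 122 in CIP-OE-Sham hearts. It had 304, 207 and 259 in Ctrl-TAC and 132, 134 and 111 in CIP-OE-TAC hearts. All 6 CIP-OE hearts lay below all controls (-0.76 ± 0.12, adjusted p = 0.0037). Bola2, which takes part in cytosolic iron-sulfur trafficking, fell by 0.93 ± 0.20 (adjusted p = 0.024), and Sdhaf4, an assembly factor of succinate dehydrogenase, by 0.70 ± 0.17 (adjusted p = 0.039). Dbi, the acyl-CoA binding protein, fell by 0.77 ± 0.15 (adjusted p = 0.015) and Pgls, an enzyme of the pentose phosphate pathway, by 0.80 ± 0.15 (adjusted p = 0.011). These 5 genes were grouped after their values were seen. Of the 12 fits without a library, Iscu stayed shared in 12, Dbi in 11, Pgls in 10, Bola2 in 6 and Sdhaf4 in 2. Bola2 was not shared with edgeR or DESeq2.

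All 12 protein-coding transcripts of the mitochondrial genome that were tested had higher values in CIP-OE hearts of both surgeries, with a median of 0.43, and 2 rose by the test. Among all genes 2812 of 13392 were higher in both surgeries. Under quantile normalization the median was 0.08 and 5 of the 12 were higher in both surgeries, and after GC correction 7 were and 0 rose. The most abundant, mt-Co1 and mt-Cytb, had 0.22 ± 0.11 and 0.14 ± 0.12 (adjusted p = 0.29 and 0.56), and mt-Cytb was at -0.046 under quantile normalization and -0.016 after GC correction. The 2 that rose, mt-Atp8 and mt-Co3, had values of 0 to 29.6 and 3.24 to 35.7 in all libraries, against 431036 to 969789 for mt-Co1. mt-Atp8 overlaps its neighbor on the genome, so that its reads can be split between genes.

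The small subunit RNA mt-Rnr1 had 24631, 21673 and 26388 normalized counts in Ctrl-Sham and 39891, 37382 and 26636 in CIP-OE-Sham hearts. It had 14589, 8916 and 10482 in Ctrl-TAC and 29699, 21145 and 24757 in CIP-OE-TAC hearts. The genotypes did not overlap within either surgery, and the lowest CIP-OE-Sham heart lay barely above the highest control (0.83 ± 0.13, adjusted p = 0.0042). The large subunit RNA mt-Rnr2 was higher by 0.67 ± 0.13 (adjusted p = 0.016), but by 0.48 after GC correction, where it was not called (adjusted p = 0.11), and 3 of the 12 fits without a library lost the call. The asparagine tRNA mt-Tn was higher by 1.19 ± 0.13 (adjusted p = 0.00020). Of 14 mitochondrial tRNAs and rRNAs 6 rose and 1 fell, with medians of 0.47 in sham and 0.18 in TAC hearts, the latter -0.27 after GC correction. The 1 fall, mt-Tl1, had 0.68 in sham and -3.82 in TAC hearts. mt-Tp, the proline tRNA, had 3224 to 4068 in Ctrl-Sham, 2989 to 4095 in CIP-OE-Sham, 691 to 957 in Ctrl-TAC and 3185 to 3706 in CIP-OE-TAC hearts, so that its difference of 1.03 ± 0.10 over both came from TAC hearts. The share of reads from the mitochondrial genome, given above, moved with these genes, and its part in them was not tested. Gm10925 and Gm13340, pseudogenes within nuclear copies of mitochondrial DNA, were higher by 2.34 ± 0.32 and 0.60 ± 0.13 (adjusted p = 0.011 and 0.023, the latter 0.12 after GC correction), and reads on them cannot be told apart from those of the mitochondrial genome.

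**Figure D4:**
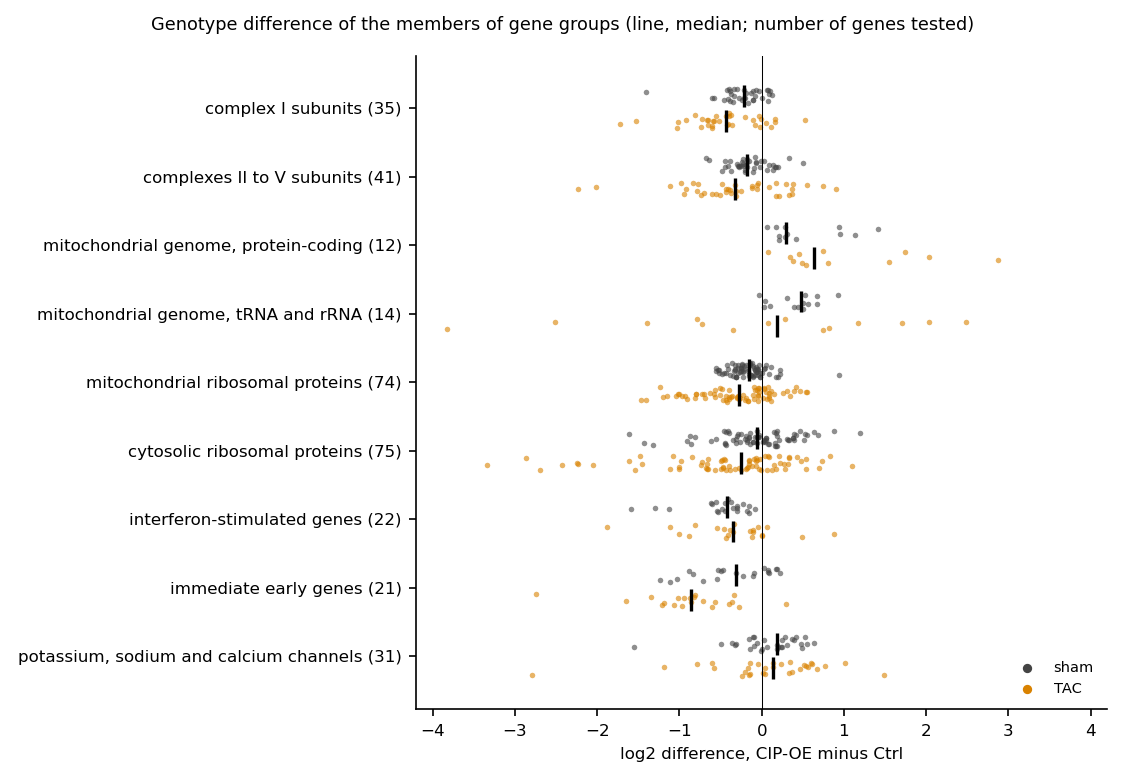
Log2 difference between CIP-OE and Ctrl hearts for each tested member of 9 gene groups, in sham (dark) and TAC hearts (orange), with the median as a line. Complex I subunits (medians of -0.21 and -0.44) and interferon-stimulated genes (-0.43 and -0.35) lie to the left in both surgeries, and mitochondrial protein-coding transcripts (0.30 and 0.64) to the right.

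Mitochondrial ribosomal proteins had 8 falls and 0 rises among 74 tested, and 44 were lower in both surgeries (median -0.20), with 6 falls after GC correction. Of the 8 only Mrpl18 and Mrps14 had an unadjusted limma p under 0.05 in each surgery. Mrps14 fell alike in sham and TAC hearts, at -0.56 and -0.58 (adjusted p over both = 0.012), from 141 to 179 in all controls to 96.8 to 124 in all CIP-OE hearts. Mrps24 fell by 0.73 ± 0.13 (adjusted p = 0.0076), with -0.22 in sham and -1.24 in TAC hearts, which differed (adjusted p of the interaction = 0.019, 0.26 after GC correction). The abundant Mrpl42 and Mrpl37 had 0.03 ± 0.09 and -0.16 ± 0.10 (adjusted p = 0.91 and 0.38). Of 75 cytosolic ribosomal proteins 5 fell and 0 rose (median -0.15), and the abundant Rpl4 and Rps3 were at -0.07 ± 0.09 and -0.11 ± 0.13 (adjusted p = 0.73 and 0.69). Among the 5 falls is Rpl35, which passed the filter on low values only through Ctrl hearts, so that its fall is no tested result. Its values went from 15.9, 12.2 and 23.3 to 2.46, 8.65 and 9.49 in sham hearts and from 179, 55.1 and 56.4 to 9.83, 12.2 and 9.40 in TAC hearts (a log2 difference of -2.09). Rps20 fell by 0.99 ± 0.21 (adjusted p = 0.034) and Rps21 by 1.02 ± 0.19 (adjusted p = 0.012), the latter with 0.18 in sham and -2.23 in TAC hearts. Ribosomal proteins have many processed pseudogenes, among which reads can be split, so these values are uncertain.

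Ifit3, Oas2 and Ifi27l2a, which interferons induce, were shared falls. Of 22 interferon-stimulated genes tested 4 fell and 0 rose, 17 were lower in both surgeries, 0 were higher in sham hearts, and the median was -0.43 in sham and -0.35 in TAC hearts. Ifit3, an inhibitor of viral translation, had 52.6, 65.1 and 40.3 normalized counts in Ctrl-Sham and 14.8, 16.2 and 19 in CIP-OE-Sham hearts. It had 67.4, 47.8 and 26.9 in Ctrl-TAC and 19.7, 22.5 and 17.9 in CIP-OE-TAC hearts. The genotypes did not overlap, at a fold of 0.33 in sham and 0.46 in TAC hearts (-1.35 ± 0.21, adjusted p = 0.0042). Oas2, which makes the activator of an antiviral ribonuclease, had 78.5 to 113 in Ctrl-Sham, 62.8 to 74.9 in CIP-OE-Sham, 143 to 171 in Ctrl-TAC and 59.2 to 111 in CIP-OE-TAC hearts (-0.67 ± 0.15, adjusted p = 0.027). Ifi27l2a, a mitochondrial interferon-induced protein, fell by 1.51 ± 0.32 (adjusted p = 0.032). Ifit3 stayed shared in all 12 fits without a library, Oas2 in 5 and Ifi27l2a in 3, and Ifi27l2a was not shared with edgeR. Stat2 and Gbp2, the most abundant members, had -0.23 ± 0.11 and -0.29 ± 0.14 (adjusted p = 0.28 and 0.27).

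Interferon-stimulated response elements are the sites through which interferon factors act, and the 250 bases before the Ifit3 start site are shown since it is the interferon gene with the smallest p (RefSeq, GRCm38.p6, chr19:34583279-34583528, plus strand). Capitals mark the motif GAAA, any 2 bases, GAAA, here at 2 places as its reverse complement (TTTC, any 2 bases, TTTC), at positions -156 and -122, with no overlap.
Ifit3: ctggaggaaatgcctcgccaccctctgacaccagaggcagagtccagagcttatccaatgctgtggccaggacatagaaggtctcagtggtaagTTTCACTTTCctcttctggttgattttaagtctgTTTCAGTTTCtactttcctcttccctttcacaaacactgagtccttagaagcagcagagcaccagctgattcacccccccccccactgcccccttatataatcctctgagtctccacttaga

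On either strand this motif lay in 9 of the 16 interferon-stimulated genes that have a promoter in the table, in 2 of 25 shared falls, in 1 of 9 shared rises and in 3.02% of the 9832 tested genes with a promoter. A match is a description of the letters and not a bound site.

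Macrophage markers were summed to 2205 to 3480 in Ctrl-Sham and 1884 to 2137 in CIP-OE-Sham hearts, and to 2273 to 3544 in Ctrl-TAC and 2734 to 3262 in CIP-OE-TAC hearts (exact permutation p = 0.15 over both). All 16 markers were lower in CIP-OE-Sham hearts (median -0.47), while the median was 0.01 under TAC, and 0 passed over both. Their part in the lower interferon-stimulated genes was not tested. Cd14 and Cd68 had -0.88 ± 0.24 and -0.54 ± 0.19 (adjusted p = 0.061 and 0.15), and Lyz2 -0.35 ± 0.16 (adjusted p = 0.28). F13a1, a marker of resident macrophages, was lower in sham hearts (-0.88) and higher in TAC hearts (0.57), and these differences differed (adjusted p = 0.0019). Fcer1g, a signaling chain of myeloid receptors that is not on that list, was a shared fall, with 62.5 to 88.5 in Ctrl-Sham, 25.9 to 50.8 in CIP-OE-Sham, 79.8 to 133 in Ctrl-TAC and 48.0 to 73.3 in CIP-OE-TAC hearts (-0.84 ± 0.18, adjusted p = 0.022).

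Immediate early genes, which stress and growth signals induce within minutes, held 3 falls and 0 rises among 21 tested, with medians of -0.31 in sham and -0.86 in TAC hearts. After GC correction 1 fell, with medians of -0.50 and -0.57. Junb, an AP-1 subunit, had 82.4, 109 and 75.3 normalized counts in Ctrl-Sham and 43.1, 66.0 and 77.0 in CIP-OE-Sham hearts, and the genotypes overlapped by 1 heart. It had 259, 408 and 193 in Ctrl-TAC and 105, 101 and 114 in CIP-OE-TAC hearts, where they did not overlap (-0.94 ± 0.17 over both, adjusted p = 0.012). After GC correction Junb was not called (-0.68, adjusted p = 0.056), it was not shared with edgeR or DESeq2, and it stayed shared in 4 of the 12 fits without a library. Cebpb, a transcription factor of acute responses, fell by 1.89 ± 0.34 (adjusted p = 0.013), with an unadjusted limma p of 0.051 in sham hearts. Dusp1 and Klf6, the most abundant, had -0.39 ± 0.30 and 0.20 ± 0.11 (adjusted p = 0.53 and 0.36). Of 14 cardiac stress genes tested 0 passed over both surgeries, where 2.0% of all genes did, so that the count is no result about them. Their medians were 0.31 in sham and -0.88 in TAC hearts. Nppa, the atrial natriuretic peptide, had 0.19 in sham and -1.88 in TAC hearts (adjusted p of the interaction = 0.026, 0.15 after GC correction), and Ctgf, a matricellular factor of fibrosis, -0.46 and -1.19 (adjusted p over both = 0.078). Acta1, skeletal alpha-actin, and Ankrd1, a stretch-responsive protein, had -0.61 ± 0.32 and -0.25 ± 0.21 (adjusted p = 0.36 and 0.58). For Acta1 this mean joined 0.52 in sham hearts and -1.74 in TAC hearts (limma, adjusted p = 0.032 in TAC hearts and 0.057 for the interaction).

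**Figure D5:**
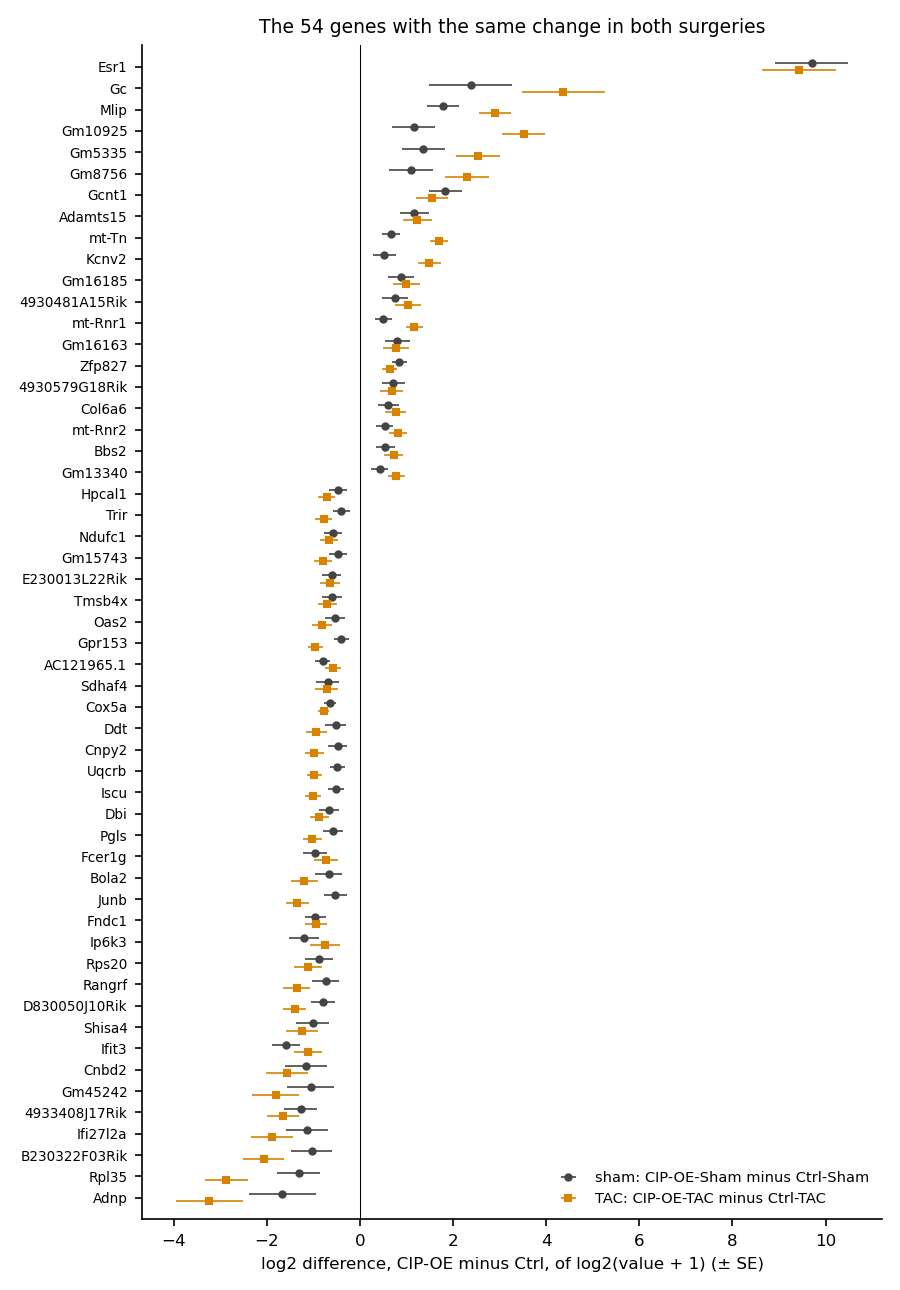
Log2 difference between CIP-OE and Ctrl hearts, with its SE, in sham (circles) and TAC hearts (squares) for the 54 shared genes, ordered by the mean of both. In 44 of the 54 the TAC difference is the larger one, and for Esr1, Gcnt1, Zfp827, Ifit3, Fcer1g and others the sham difference is.

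Among the other shared falls, Fndc1, a fibronectin domain protein, changed by the same amount in both surgeries (-0.96 and -0.95, adjusted p over both = 0.0071). Ip6k3, a kinase that makes inositol pyrophosphates, fell by 0.97 ± 0.23 with no overlap of genotypes (adjusted p = 0.036), but was not called after GC correction (adjusted p = 0.066) and stayed shared in 2 of the 12 fits without a library. Rangrf fell by 1.04 ± 0.20, from 32.9 to 36.6 to 18.4 to 25.3 in sham and from 34.0 to 60.0 to 14.1 to 22.9 in TAC hearts (adjusted p = 0.012). Tmsb4x, thymosin beta 4, which binds actin monomers, was the most abundant nuclear fall after Cox5a, with 1045 to 1115 in Ctrl-Sham, 568 to 887 in CIP-OE-Sham, 952 to 1946 in Ctrl-TAC and 839 to 968 in CIP-OE-TAC hearts (-0.65 ± 0.15, adjusted p = 0.037). It too was not called after GC correction (adjusted p = 0.058) and stayed shared in 2 of the 12 fits. Adnp, a chromatin factor, had only 0 to 25.1 normalized counts, and 10 was reached in Ctrl-TAC hearts alone, with 0.993, 7.12 and 7.42 in Ctrl-Sham against 0, 1.08 and 1.05 in CIP-OE-Sham hearts and 21.2, 25.1 and 14.8 in Ctrl-TAC against 0, 1.88 and 2.82 in CIP-OE-TAC hearts. Cnpy2, Ddt, Shisa4, Gpr153, Cnbd2, Trir and Hpcal1 fell by 0.59 to 1.36.

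The remaining shared genes were predicted or noncoding. The rises were Gm5335, Gm8756, Gm16185, Gm16163, 4930481A15Rik and 4930579G18Rik (0.70 to 1.95), and the falls were B230322F03Rik, 4933408J17Rik, D830050J10Rik, E230013L22Rik, Gm15743, Gm45242 and AC121965.1 (-1.55 to -0.62). Of these, 4933408J17Rik, a long intergenic RNA, did not overlap between genotypes, with 36.6 to 38.7 in Ctrl-Sham, 7.39 to 23.2 in CIP-OE-Sham, 40.8 to 49.9 in Ctrl-TAC and 9.83 to 19.7 in CIP-OE-TAC hearts (adjusted p = 0.0056). Gm5335 and Gm8756 had nearly the same values in each library, and reads may be split between them. Without a stated strand setting, reads of the antisense transcripts cannot be told apart from those of the genes they overlap.

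In 44 of the 54 shared genes the TAC difference was the larger one. The interaction was called for 1508 of all genes (11.3%), and 112 after GC correction. Among the 54 it passed for mt-Tn and Gm10925 (adjusted p = 0.020 and 0.046, 0.48 and 0.32 after GC correction), a count that the rule for shared changes keeps low and that is no result about them. In sham hearts alone 3 genes were called (0.0224%), against 1567 in TAC hearts (11.7%). These 3 were Esr1, Gm15469 (0.83 ± 0.13, adjusted p = 0.013) and Vcam1, an adhesion molecule of activated endothelium, which fell by 1.25 ± 0.21 in sham hearts (adjusted p = 0.030) and was at 0.56 in TAC hearts. At an unadjusted limma p under 0.05, 11.2% of the genes passed in sham and 33.2% in TAC hearts. The calls of single shared genes rested on the libraries used. Without each library in turn 21 to 50 of the 54 stayed shared, the fewest without the CIP-OE-Sham heart that had 5492 normalized counts of Mlip. That heart also had the highest share of mitochondrial reads of all 12 (54.0%) and the lowest scaling factor (0.812). The part of these traits was not tested. All 54 kept their sign in each of these 12 fits, which the rule that chose them makes likely. Of the 54, 13 stayed shared in all 12 fits and 21 in fewer than 6.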

How the data were processed

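Heart RNA (Trizol, BGI sequencing) of 12 mice was used, 1 library per mouse. In the deposited table each value is a signal, a gene's read count scaled by the authors with a single factor for each library. For alignment and counting the paper has STAR and featureCounts (mm10), whereas HISAT2 2.0.4 and StringTie 2.1.4 (GRCm38) stand in the submitters' notes, and DESeq2 (1.4.5 in the notes) is in both. Neither gives the annotation release or strand setting. Values were whole multiples of 1 step per library within 0.001, so reads were recovered (factors of 0.812 to 1.23). At this depth low counts limit precision. Of 54515 rows 633 exact duplicates were removed, and coordinates, types, lengths and GC content come from GENCODE M21 (GRCm38).

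log2(value + 1) was fitted with limma 3.58.1 in R 4.3.3 (robust, with a trend, 4 group means), with Benjamini-Hochberg adjustment over 13392 genes. Log2 differences understate the change of low genes. Single values per library were tested by exact permutation within surgery (400 regroupings). The p-values measure the spread between these mice. On simulated counts of the 13392 genes with 200 changed in both surgeries, 79% of 2-fold and 98% of 4-fold changes were found as shared, with 4 false ones. The simulation held no gene changed in a single surgery and no trend with GC content, unlike these data. Its false genes therefore do not measure the errors among the shared genes. Alternatives included edgeR 4.0.16 and DESeq2 1.42.0 on recovered reads. The members and gene lists were chosen with earlier results of these data known. Named are the genes of the targeted loci, the shared genes (the 15 largest rises and falls with a mean of at least 50 first, the others as members of the 54), and in each list described the 2 members with the smallest p and the 2 most abundant, apart from some that are not reported here. Any other gene was named after its values were seen.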

Additional observations from a re-analysis of the deposited data

Results flagged for a closer look

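The genotype effect differed between TAC and sham hearts (interaction in limma, adjusted over all genes) for 11 of the genes named by the rule given with the processing. Differences are given as the TAC minus the sham effect on the log2 scale. The TAC effect was more positive for mt-Tp by 2.01 (adjusted p = 3.9e-05), Gm10925 by 2.36 (0.046), F13a1 by 1.45 (0.0019), mt-Tn by 1.03 (0.020) and Ndufs1 by 0.63 (0.021). It was more negative for Rps21 by -2.41 (0.0017), Nppa by -2.07 (0.026), Ndufb4 by -1.39 (0.040), Ctsd by -1.10 (0.0014), Mrps24 by -1.02 (0.019) and Cox6a2 by -0.97 (0.033). After GC correction the difference held for Ctsd, F13a1, Rps21 and mt-Tp (adjusted p = 0.039, 0.021, 0.010 and 0.00020) and not for the other 7 (adjusted p of 0.15 to 0.48). Of these genes only mt-Tn and Gm10925 were among the shared changes. Genes named outside that rule were not counted, among them Kcnj5 and mt-Tl1 (adjusted p of the interaction = 0.018 and 0.0042).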

How the results depend on the processing

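No paired analysis was possible because the groups share no animal numbers. All 54 shared genes kept their sign in each alternative where they were tested, which the rule that chose them in these same libraries makes likely. The counts over both surgeries (40 higher, 102 lower) and of shared changes (20 and 34) were 8 and 10 in the additive fit for both kinds, 23 and 33 over both surgeries with 14 shared falls without trend and robust fit, 107 and 161 with 38 and 57 shared when no fold was asked, and 15 and 18 with 9 and 10 shared at an adjusted p under 0.01. Falls over both surgeries were 53 with GC and length correction, an alternative added after seeing the data. With the larger p-value adjusted over all genes 1 rise and 0 falls were shared, where 148 genes had unadjusted p-values under 0.05 in each surgery in the same direction, and with no p asked of each surgery 37 and 92. Sham calls (3) were 10 without a filter, 55 with DESeq2, 3 with edgeR, 1 without trend and robust fit and 0 at an adjusted p under 0.01, where 1503 had an unadjusted p under 0.05. TAC calls (1567) were 343 with GC correction, 357 with GC and length correction, 2462 with no fold and 740 at 0.01. Interaction calls (1508) were 705 without trend and robust fit, 112 with GC correction, 154 with GC and length correction and 361 at 0.01. The cause was not tested.

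Leaving out each library gave 22 to 90 rises and 41 to 222 falls over both surgeries, 10 to 32 and 14 to 70 shared, 0 to 16 sham calls, 934 to 1861 TAC calls and 707 to 1715 interaction calls. Rises over both and shared falls were highest without the Ctrl-TAC heart with 936 normalized counts of Mlip (90 and 70), rises lowest without the Ctrl-Sham heart with 926 (22), and shared falls lowest without the CIP-OE-Sham heart with 5492 (14).

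Values near 0 reversed for 5 named genes that were not called. With GC correction Thumpd3 went to -0.11, Mrpl42 to -0.062 and mt-Cytb to -0.016, with GC and length correction Thumpd3 to -0.072 and Mrpl42 to -0.055, and under quantile normalization mt-Cytb to -0.046. With 1 library left out Thumpd3 ranged from -0.072 to 0.11, Mrpl42 from -0.025 to 0.087, Atp5b from -0.054 to 0.054 and Cxcl12 from -0.11 to 0.036. Genes with few reads are limited by depth, as 18 of the 54 shared genes had a mean under 50 and of these Adnp and Gc had 0 reads in some libraries.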

Other observations

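Some genes of other groups passed over both surgeries with an unadjusted limma p under 0.05 in each, but at a fold under 1.5, and are named after their values were seen. Hrc, a calcium-binding protein of the sarcoplasmic reticulum, was higher by 0.53 ± 0.09 (limma, adjusted p = 0.0065), with 0.37 in sham and 0.68 in TAC hearts. Myom2, a protein of the M-band, was higher by 0.53 ± 0.11 (adjusted p = 0.019), with 0.57 and 0.50, and the chaperone Hspa8 by 0.45 ± 0.10 (adjusted p = 0.022), with 0.37 and 0.53. Igfbp7, a secreted binding protein of insulin-like growth factors, was lower in both, at -0.46 and -0.62 (adjusted p over both = 0.026). Uqcrfs1, the Rieske iron-sulfur protein of the bc1 complex, had -0.40 and -0.41 (adjusted p over both = 0.022).

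Of 30 genes of fatty acid oxidation 0 passed over both surgeries (median 0.09), where 2.0% of all genes did. Of 49 extracellular matrix genes 0 passed, with medians of 0.11 in sham and -0.62 in TAC hearts, the latter -0.33 after GC correction.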
